A study of Homo sapiens with 3 samples.

Results

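Apolipoproteins are the proteins that package lipids into plasma lipoprotein particles. The 9 apolipoprotein genes described here, APOA1, APOA2, APOA4, APOB, APOC1, APOC3, APOE, APOH and APOM, were taken by name from the 32738 genes of a table of unique molecular identifier (UMI) counts, and all 9 were in the table. They were followed in chambered cardiac organoids (CCOs), heart-like structures grown from H7, a human embryonic stem cell line. H7 cells were turned towards cardiomyocytes (CMs) in 2D with the GSK3 inhibitor CHIR99021 and then the Wnt inhibitor IWP-2, and were aggregated in Matrigel at day 7. The aggregates grew in cardiosphere growth medium until day 14 and in RPMI with B27 in a spinner flask after that. Dissociated CCOs of day 8 (D8), day 14 (D14) and day 21 (D21) were each measured in 1 droplet library, from 1 cell line and with no treated arm. Day and library cannot be told apart, so days were compared without a test, and each interval below is a 95% interval for counting error only.

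In the body the liver is the main source of most plasma apolipoproteins, and the intestine makes several of them. Definitive endoderm gives rise to both organs, and apolipoprotein transcripts are among the early products of endoderm that takes the hepatic path. Transcription of these genes in hepatocytes depends on a network of factors that includes HNF4A, the FOXA proteins and CEBPA. APOE is also made by many other cells, such as macrophages and astrocytes.

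After filtering, the libraries of D8, D14 and D21 kept 2657, 3585 and 1946 cells, with a median of 15316, 12282 and 14105.5 UMIs per cell. Clustering without the 9 genes gave a cluster of 257 cells at D8 (9.67% of the day's cells) and 208 cells at D14 (5.80%), called early endoderm-like, and another of 307 cells at D21 (15.8%), called hepatic-like. Of 12 early endoderm markers, 9 at D8 and 10 at D14 exceeded the rest of the day by 2-fold or more, and of 12 hepatic markers, 12 did so at D21. The split was not complete, since 3 of the hepatic markers at D8 and 4 at D14 passed the same limit, as did 10 of the early endoderm markers at D21. SERPINA1 had 135 UMIs in these cells at D8 and 362 at D14, and VTN had 132 and 283. Of the other hepatic markers, AFP and ALB were nearly absent at the early days, while TTR, which is not on that list, was present. TTR, a carrier of thyroid hormone and retinol, was at 665.7 counts per 1000000 UMIs (CPM) in these cells of D8, 614.5 CPM in those of D14 and 1416 CPM in those of D21, whereas AFP had 0.301, 4.40 and 11253 CPM, and ALB had no UMI at D8 and reached 31569 CPM at D21. None of the CM, fibroblast or endothelial markers was 2-fold higher in these cells on any day. Of 9 intestinal markers, 1 was 2-fold higher on each early day and 3 were at D21, when they summed to 168 CPM against 7.66 CPM in the other cells. Of 9 macrophage markers, none was 2-fold higher at D8 or D14 and 2 were at D21, and PTPRC, C1QA and C1QB had no UMI in these cells on any day. Few barcodes were shared between libraries: 14 kept cells of D8 and D14, 9 of D8 and D21 and 10 of D14 and D21. The endoderm-like cells were deeper than the rest, with medians of 23591, 20518.5 and 21922 UMIs per cell.

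Sequences 250 bases before to 50 bases after the start of transcription were held by RefSeq (GRCh38.p14) for 6 of the 9 genes, 8 promoters in all. They were searched on both strands for the motifs given here, most of them of the network named above. The letters TATAAA of the core promoter are in 11.5% of all 35116 promoters of the same length. The letters CAAAGNNCA, for HNF4, are in 5.28% of them. The letters TGTTTNC, for FOXA, are in 18.0%, and TTGCNNAA, for C/EBP, in 10.5%. Matches to these letters were found in APOA2 and APOM, which are printed 5′ to 3′ with the matched bases in capitals, because their levels are set beside those of the factors further on. The promoter of APOA2 is at chr1:161223579-161223878 on the minus strand and that of APOM at chr6:31655644-31655943 on the plus strand.
APOA2: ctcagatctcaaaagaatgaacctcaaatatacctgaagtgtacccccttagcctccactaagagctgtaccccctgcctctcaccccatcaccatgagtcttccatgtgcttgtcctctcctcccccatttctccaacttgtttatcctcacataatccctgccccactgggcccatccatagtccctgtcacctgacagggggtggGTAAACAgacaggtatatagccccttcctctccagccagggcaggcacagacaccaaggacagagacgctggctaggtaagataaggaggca
APOM: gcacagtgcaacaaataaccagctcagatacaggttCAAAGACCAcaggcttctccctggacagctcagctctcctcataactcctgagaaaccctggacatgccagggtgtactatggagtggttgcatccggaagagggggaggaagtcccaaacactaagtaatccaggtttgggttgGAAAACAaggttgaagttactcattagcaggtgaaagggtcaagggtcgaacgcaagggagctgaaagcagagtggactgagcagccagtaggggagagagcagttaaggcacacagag
In APOA2 the capitals mark a FOXA match on the opposite strand, 42 bases before the start. In APOM they mark an HNF4 match 214 bases before the start and a FOXA match 69 bases before it, on the opposite strand. No matches overlapped. The promoters of APOA4, APOC1 and APOE held none of these letters. These are matches of letters in a window of the reference sequence, and binding was not measured.

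APOA1, APOA2 and APOM are proteins of high-density lipoprotein (HDL). APOA1, its main structural protein and the cofactor of LCAT, was at 289.9 CPM (277 to 303) in the early endoderm-like cells at D8, at 96.5 CPM (87.9 to 106) at D14 and at 22316 CPM (22209 to 22423) in the hepatic-like cells at D21. The D14 level was 3.0-fold below the D8 level, and the level at D21 was 231-fold (211 to 254) above that at D14. APOA2, the other abundant HDL protein, was at 434.6 CPM (419 to 451), 363.1 CPM (346 to 381) and 30473 CPM (30349 to 30598). It stayed nearly level between the early days, with a log2 ratio of D14 over D8 of -0.26 (-0.35 to -0.17), and was 83.9-fold (80.1 to 88.0) higher at D21 than at D14. APOM, a lipocalin that carries sphingosine 1-phosphate in HDL, was scarce at 12.1 CPM (9.56 to 15.0) and 6.70 CPM (4.58 to 9.45) at D8 and D14 and reached 516 CPM (500.2 to 533) at D21, 77.1-fold (54.5 to 113) above D14. UMIs count captured 3′ ends, so levels in CPM were set side by side between genes without division by length.

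APOA4, a protein of chylomicrons and HDL that the intestine makes in quantity, was nearly absent from these cells. It had 4 UMIs at D8, only 2 at D14 and then 57 at D21, or 0.603, 0.419 and 7.57 CPM. The ratio of D21 over D14 was 18.1 with an interval from 4.78 to 153, and 26 of the 57 UMIs lay in 1 cell, so the hepatic-like level without that cell was 4.13 CPM. APOB is the scaffold of chylomicrons and of very-low-density and low-density lipoproteins. It was at 49.3 CPM (44.1 to 54.9) on D8, 21.3 CPM (17.4 to 25.9) on D14 and 1297 CPM (1271 to 1323) at D21. As for APOA1, APOA2, APOM, APOC1 and APOE, the APOB level was lowest at D14. It was 60.7-fold (49.98 to 74.6) higher at D21 than at D14.

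The small exchangeable apolipoproteins APOC1 and APOC3 differed most at the early days. APOC1, an inhibitor of cholesteryl ester transfer, was at 324.6 CPM (311 to 339) at D8 and 227.7 CPM (214 to 242) at D14, and reached 7112 CPM (7052 to 7172) at D21. APOC3, an inhibitor of lipoprotein lipase, had 3 UMIs at D8 and 6 at D14, or 0.452 and 1.26 CPM, and 69328 UMIs at D21, or 9207 CPM (9139 to 9276). Its ratio of D21 over D14 was 7332 with an interval from 3368 to 19980, the highest of the 8 genes with a UMI at D14, and its early levels rest on so few UMIs that D8 and D14 could not be set apart (ratio 2.78, from 0.593 to 17.2).

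APOE, the ligand by which remnant particles bind receptors on liver cells, was the leading member at D8 and D14. Its levels were 1244 CPM (1218 to 1271), 887 CPM (861 to 914) and 9802 CPM (9732 to 9873) on the 3 days. The D21 level was 11.0-fold (10.7 to 11.4) above D14, the smallest ratio among the 8 members that reached 10 CPM. APOH, a phospholipid-binding plasma protein also known as beta-2-glycoprotein I, had no UMI in the 257 cells of D8 or the 208 cells of D14. A count of 0 allows up to 0.452 CPM at D8 and 0.628 CPM at D14, taking 3 counts as the limit. At D21 it had 1130 UMIs, or 150.1 CPM (141 to 159), at least 239-fold higher than at D14 against that limit.

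**Figure D1:**
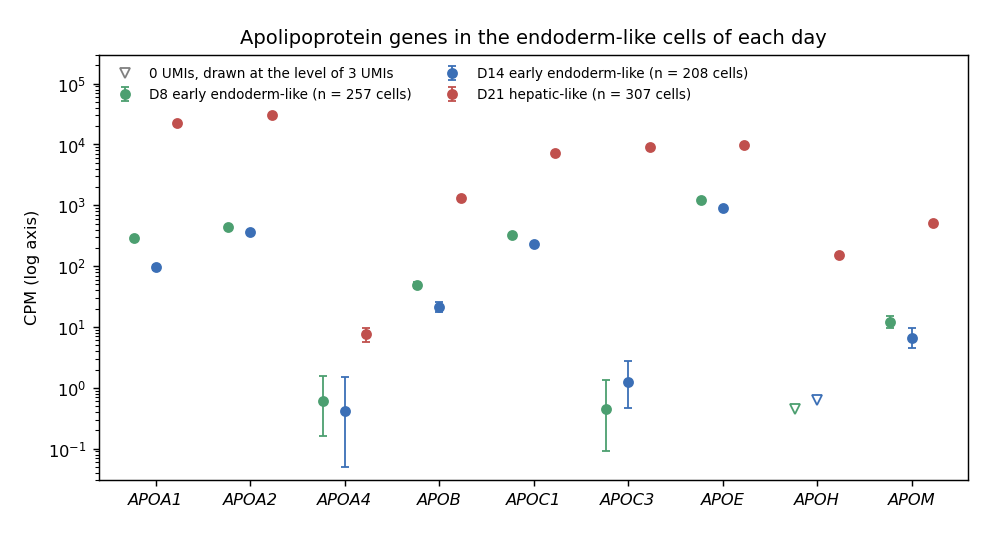
Level of each of the 9 apolipoprotein genes in CPM on a log axis in the early endoderm-like cells of D8 and D14 and the hepatic-like cells of D21, with 95% counting intervals, from 1 library per day. Levels at D21 run from 7.57 CPM for APOA4 to 30473 CPM for APOA2, and APOC3 goes from 1.26 CPM at D14 to 9207 CPM at D21.

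Across all genes at 10 CPM or more on at least 1 of the 2 days compared, 5.89% were 2-fold or more higher at D14 than at D8 in the early endoderm-like cells, and 3.66% were 2-fold or more lower. Of the 6 apolipoprotein genes at that level, none was higher and 2 were lower, APOA1 with a log2 ratio of -1.58 (-1.74 to -1.44) and APOB with -1.20 (-1.54 to -0.88). The other 4 also had intervals below 0, with log2 ratios of -0.82 for APOM, -0.51 for APOC1, -0.49 for APOE and -0.26 for APOA2. The median of the 9 genes was -0.49, with APOA4, APOC3 and APOH included though under 10 CPM on both days. Over all 8666 genes tested, which passed that limit, it was -0.09. APOB was less than 2-fold lower when cells were chosen by a gate on EPCAM and FOXA UMIs or when each cell was weighted equally. With the gate the direction of APOA2 turned, to a log2 ratio of 0.45.

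Between D14 and D21, 11.5% of 8902 genes were 2-fold or more higher in the hepatic-like cells and 29.1% were lower. All 8 of the apolipoprotein genes that reached 10 CPM were higher and none was lower. APOC3, APOH and APOM passed that limit only through D21, and for the 5 genes at 10 CPM or more on both days, APOA1, APOA2, APOB, APOC1 and APOE, the ratios ran from 11.0 to 231. The median log2 ratio of the 9 genes, APOA4 included though under 10 CPM on both days, was 6.22, beside -0.48 over all genes tested. The value of 6.22 is that of APOM and so does not depend on the count added for APOH. Scaling by median of ratios, in place of the total, moved the median of all genes by 0.65 and gave 21.6% of genes higher and 14.3% lower, and the smallest log2 ratio of the 8 genes was then 4.04. Against D8, the D21 levels were 77.0-fold higher for APOA1, 70.1-fold for APOA2, 42.8-fold for APOM, 26.3-fold for APOB, 21.9-fold for APOC1 and 7.88-fold for APOE.

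The size of the D21 level moved with the share of mitochondrial UMIs. The hepatic-like cells had a median mitochondrial share of 7.67%, against 1.59% and 1.83% in the early endoderm-like cells of D8 and D14, and 1982 barcodes of D21 failed the 10% limit. The 9 genes summed to 80881 CPM in all 307 hepatic-like cells. They summed to 86701 CPM in the 269 cells with 5% or more mitochondrial UMIs and to 32262 CPM in the 38 cells under 5%. The cells under 5% were still far above the 1604 CPM of D14, and the same 8 genes, with APOA4 as well, were 2-fold or more higher in them. Whether cell state, damage or free RNA accounts for the difference between these cells was not tested.

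Taken as a family, the 9 genes summed to 2356 CPM (2319 to 2393) on D8, 1604 CPM (1568 to 1641) on D14 and 80881 CPM (80678 to 81084) on D21, or 0.236%, 0.160% and 8.09% of all UMIs in the endoderm-like cells. The make-up changed along with the sum. APOE gave 52.8% of the family's UMIs in D8 cells, 55.3% in D14 cells and 12.1% in D21 cells. APOA2 went from 18.4% and 22.6% to 37.7%, and APOA1 from 12.3% and 6.01% to 27.6%. APOC3 went from 0.0192% and 0.0783% to 11.4%. In the other cells of the same days APOE gave 82.2%, 81.9% and 29.7%. Ranked by level among all genes of the hepatic-like cells, APOA2 was number 2, APOA1 number 4, APOE number 11, APOC3 number 12 and APOC1 number 17. At D8 the same order began with APOE at number 119, APOA2 at 277, APOC1 at 376 and APOA1 at 420.

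**Figure D2:**
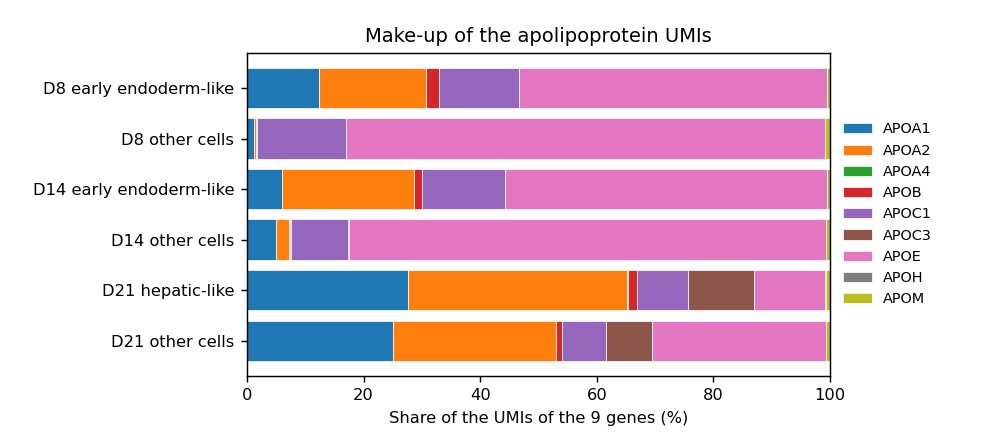
Share of the UMIs of the 9 apolipoprotein genes taken by each gene (%), in the endoderm-like cells and in all other cells of each day. APOE takes 52.8% and 55.3% in the early endoderm-like cells of D8 and D14 and 12.1% in the hepatic-like cells of D21, where APOA2 and APOA1 take 37.7% and 27.6%.

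Cells of the same cluster differed in how many of the genes they held. To compare cells at equal depth, each was thinned at random to 4000 UMIs. At D8, 90.7% (86.4 to 93.9) of the early endoderm-like cells had an APOE UMI, 54.5% an APOC1 UMI, 39.3% an APOA2 UMI, 29.2% an APOA1 UMI and 10.1% an APOB UMI. At D14 the shares were 88.0% for APOE, 104 of the 208 cells for APOC1, 20.2% for APOA2 and for APOA1 and 6.73% for APOB. Without thinning, APOA2 was found in 63.8% and 36.1% of the cells and APOA1 in 63.4% and 47.6%. For APOA2 the share in the endothelial-like cells, which should lack it, was 0 of 48 thinned cells at D8 and 9.43% of 53 at D14, at median depths of 15361.5 and 11280 UMIs. At D21 APOA2 and APOE were in all 307 thinned hepatic-like cells, APOA1 in 99.3%, APOC1 in 97.7%, APOC3 in 90.2%, APOB in 89.3%, APOM in 67.1%, APOH in 21.2% and APOA4 in 1.63%. At that day 73.0% of the 37 endothelial-like cells also held an APOA1 UMI after thinning, so the D21 shares say less than the UMIs per cell.

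At the early days much of the APOA1 and APOA2 UMIs came from few of the cells. Of the 257 cells of D8, the 26 with most APOA1 UMIs held 72.7% of them, and the 26 with most APOA2 UMIs held 65.3%. Of the 208 cells of D14, the 21 with most APOA1 UMIs held 64.0% of them, and the 21 with most APOA2 UMIs held 88.2%. APOE was spread more evenly, with 31.4% of its UMIs in the top 26 cells of D8 and 33.5% in the top 21 of D14. At D21 the top 31 cells held 28.5% of the APOA1 UMIs, 27.8% of the APOA2 UMIs, 36.8% of the APOC3 UMIs and 75.8% of the APOH UMIs. APOH was the most restricted to few cells of these 4 genes and was found in 123 of 307 cells without thinning.

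In thinned cells, the sum of the 9 genes had a median of 6 UMIs (range 0 to 77) in D8 cells, 4 (0 to 54) in D14 cells and 314 (9 to 812) in D21 cells. The median number of the 9 genes detected was 2, 2 and 7. At least 5 genes were found in 20 D8 cells (7.78%), 7 D14 cells (3.37%) and 291 D21 cells (94.8%), and in no cell were all 9 found. Within D21 the medians per thinned cell were 106 UMIs for APOA2 (1 to 346), 76 for APOA1 (0 to 354), 37 for APOE (2 to 143), 28 for APOC1 (0 to 99) and 23 for APOC3 (0 to 248). APOC3 varied most of these 5 genes, with a coefficient of variation of 1.14, against 0.76 for APOA1, 0.67 for APOC1, 0.60 for APOA2 and 0.59 for APOE.

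**Figure D3:**
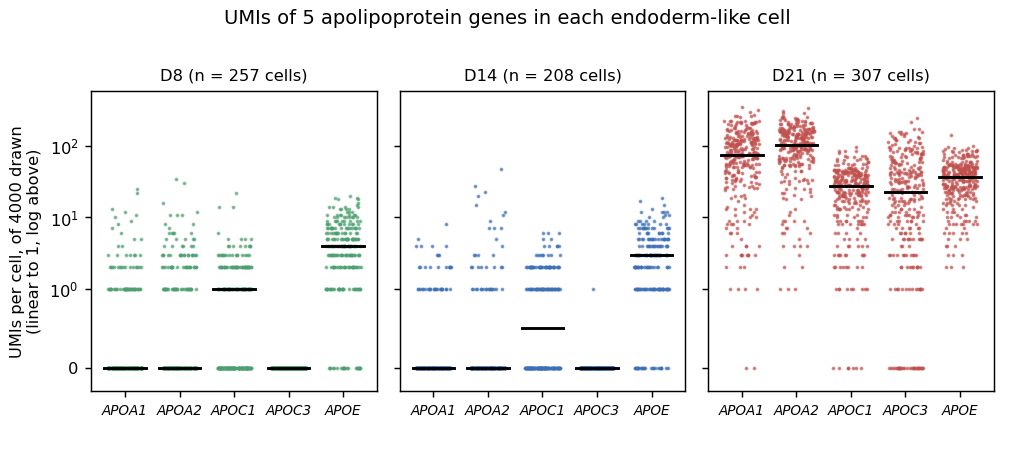
UMIs of 5 apolipoprotein genes in each endoderm-like cell after thinning to 4000 UMIs, by day, on an axis that is linear up to 1 and logarithmic above. Each point is a cell and each line a median, which for APOA2 is 0 at D8 and D14 and 106 at D21, and for APOE 4, 3 and 37.

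Genes of the family varied together across cells of a day. Pearson correlations of log counts in thinned cells are given as a description, since all cells of a day share a library and a fixed total. Among members with a mean of at least 0.05 UMIs per thinned cell, the median over pairs was 0.32 at D8 (15 pairs, 257 cells), 0.22 at D14 (10 pairs, 208 cells) and 0.45 at D21 (28 pairs, 307 cells). These medians cover 6, 5 and 8 genes. Counts per thinned cell differed too, with a mean for APOA1 of 0.899, 0.389 and 89.5, so the medians do not rank the days. At D8 the highest pairs were APOA1 with APOA2 (0.50) and with APOC1 (0.49), and APOA1 had 0.41 with TTR. At D14 APOA2 had 0.55 with SERPINA1, the gene of alpha-1 antitrypsin. At D21 APOA1 had 0.81 with APOC1, 0.79 with APOE and 0.77 with APOC3, as well as 0.77 with RBP4, the plasma carrier of retinol. EPCAM, an epithelial surface marker, went the other way at D21, with -0.33 for APOC1, -0.32 for APOC3 and -0.23 for APOA1.

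The early endoderm-like cells of D14 had few cells beside them that already carried hepatic transcripts. Exactly 4 D14 cells fell in the hepatic-like cluster, each with 33 to 343 SERPINA1 UMIs. Together they held 750 APOA2 UMIs, or 9092 CPM (8452 to 9766), 127 APOA1 UMIs (1540 CPM), 137 APOC1 UMIs (1661 CPM), 107 APOE UMIs (1297 CPM) and 29 APOB UMIs (352 CPM). Their levels of each of these genes lay between those of the early endoderm-like cells of D14 and the hepatic-like cells of D21. So did their levels of APOC3 and APOM, at 9 UMIs each, while APOA4 had 1 UMI in them and APOH none. These cells were too few for a group of their own and were named after their values were seen.

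Of the factors, partners and enzymes around the family, some were higher along with it at D21. These lists were chosen with earlier results of these data known, and a gene was counted when it was at 10 CPM or more in the endoderm-like cells of D14 or D21 and 2-fold or more apart. Of 25 regulators of apolipoprotein transcription, 22 reached 10 CPM, 12 were higher at D21 and 3 lower, where 11.5% and 29.1% of all genes were. HNF4A, a nuclear receptor central to hepatocyte identity, had 1.96 CPM on D8, 4.19 CPM on D14 and 63.5 CPM on D21, and CEBPA had 0.904, 12.3 and 220 CPM. NR1H4, the bile acid receptor, and NR0B2, the repressor it induces, had no UMI at D8 or D14 and were at 66.0 and 59.8 CPM at D21. FOXA2 was lower, at 132, 122 and 15.1 CPM, while FOXA3 was at 35.4, 28.9 and 65.3 CPM. NR2F2 and RORA were the other lower ones. With median-of-ratios or TMM scaling, 16 were higher and 2 lower, and RORA was no longer among them.

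Among 10 genes of lipoprotein assembly, 8 reached 10 CPM, and MTTP, the transfer protein that loads lipid onto APOB, was the only one past 2-fold, at 4.07, 3.77 and 107 CPM. The endoplasmic reticulum chaperones HSPA5, P4HB and PDIA3 were high on all days and within 2-fold of D14 at D21. Other scalings added SAR1B, SURF4 and HSPA5 to the higher ones. Of 15 other apolipoprotein genes, 5 reached 10 CPM and 4 were higher at D21. CLU, a chaperone also called apolipoprotein J, was at 91.0, 94.2 and 1977 CPM, and APOA5, a neighbour of APOA4, at 0, 0.209 and 109 CPM. APOL2 and APOL6 were the other higher ones. APOO, a mitochondrial protein despite its name, was lower at 43.5, 38.3 and 19.0 CPM, a call lost with the other scalings, and APOC4 and APOD had no UMI in the hepatic-like cells.

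Of 17 receptor genes, 12 reached 10 CPM. At D21 3 of them were higher, SCARB1 included, and 2 were lower, VLDLR and AMN, where 11.5% and 29.1% of all genes were. SCARB1, the HDL receptor, was at 7.68, 9.42 and 42.9 CPM, and VLDLR, which binds APOE-rich particles, at 14.9, 20.1 and 1.73 CPM. Of 15 genes of lipases and remodelling, 6 reached 10 CPM, and 4 of them were higher and 1 lower at D21. Hepatic lipase LIPC was higher, at 0.301, 0.209 and 305 CPM. ABCA1, which loads lipid onto APOA1, and LCAT were higher as well. ANGPTL4 was lower, and LPL, the lipase of muscle and fat, had no UMI in the hepatic-like cells. Between D8 and D14, 6 of the 13 regulators at 10 CPM were 2-fold or more higher at D14 (FOXA1, CEBPA, CEBPB, NR2F2, PROX1 and GATA6), where 5.89% of all genes were. In the other lists SAR1B and AMN were higher, and no gene of the 5 lists was 2-fold or more lower. With the level of other cells subtracted, the regulators that were higher were 2 of 7, where 31.95% of all genes tested were. Under that setting 4 assembly genes were lower, SAR1A, SURF4, PDIA3 and HSPA5, where 38.7% of all genes tested were. With the gate HSPA5 was lower, where 3.6% of all genes tested were.

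Over 25 profiles of day and cell group, 10 genes that are not members had levels most like the mean of the members, among 3087 genes compared. They were F2, EPHX1, SLC39A5, ARG1, HABP2, MTTP, ASGR2, SERPINF2, SMLR1 and A1CF, with Pearson correlations of log levels between 0.92 and 0.93. Each was far higher at D21 than before, for example F2, the gene of prothrombin, at 9.64, 7.12 and 422 CPM. The members themselves ranged from 0.97 for APOM and 0.95 for APOC1 to 0.60 for APOA4. The profiles share libraries and are not independent, so no test was made.

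Outside the endoderm-like cells the members parted into 2 kinds at D8. The early endoderm-like cells held 97.3% of the day's APOA2 UMIs, 95.6% of its APOB UMIs and 85.8% of its APOA1 UMIs, but 35.7% of its APOC1 UMIs, 28.3% of its APOE UMIs and 28.1% of its APOM UMIs. All 6 genes at 10 CPM or more were 2-fold or more higher in the early endoderm-like cells than in the rest of D8, where 4.79% of all genes were. At D14 it was 4 of 5, against 5.35% of all genes, and APOE, at 887 CPM against 600.3 CPM in the other cells, was the exception. At D21 it was 8 of 8, against 11.0% of all genes. At D8 APOA1, APOA2, APOB and APOM passed 10 CPM only through the endoderm-like cells. The same held for APOB at D14 and for APOH and APOM at D21. These counts describe clusters made from the same cells, and no test was made.

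Free RNA from broken cells can put UMIs of 1 cell type into droplets of another, and RNA of a single source keeps its genes in 1 ratio. Levels in the other groups were therefore given as a share of the endoderm-like level of the day and set beside the same share for reference genes that are not members, such as TTR, SERPINA1 and FOXA2. At D8 TTR was at 0.179% to 0.769% of its endoderm-like level in the other groups and APOA2 at 0.275% to 0.635%, so APOA2 outside the endoderm-like cells was within the range of the reference genes or below it. APOE was at 21.2% to 59.4%, from 264 CPM in the endothelial-like cells to 739 CPM in the CM-like cells, and APOC1 at 21.9% to 33.1%. The reference genes did not keep to 1 ratio, with shares from 0.564% to 30.7% in the CM-like cells, and CLDN6 set the highest share in all 6 of the D8 groups.

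At D21 most members were near a common share. In the 6 groups other than the small CM-like cluster 17, APOA1 was at 1.24% to 1.53% of the hepatic-like level, APOA2 at 0.994% to 1.44%, APOC1 at 1.19% to 1.48% and APOC3 at 0.954% to 1.53%. SERPINA1, a reference gene, was at 0.775% to 1.11% and AFP at 1.01% to 1.93% in the same groups. The APOA1 level of 318 CPM in the CM-like cells of cluster 5, well above their 76.8 CPM at D14, was 1.42% of the hepatic-like level and thus within the range of the reference genes. One of the 6 groups, the unnamed cluster 16 of 58 cells, had a median doublet score of 0.214, against 0.0242 to 0.0556 in the other 5, and whether its cells were doublets was not tested. APOE stood above the highest reference gene in the fibroblast-like cells, at 6.03% (5.87 to 6.18) of the hepatic-like level or 590.6 CPM, and in the dividing cells of cluster 15, at 4.56% (4.29 to 4.84) or 447 CPM. It was at 203 CPM in the CM-like cells of cluster 5. The 50 cells of CM-like cluster 17 held far more, 4205 CPM of APOA1 and 11718 CPM of all 9 genes. Their reference genes were raised likewise, with a median of 18.2% of the hepatic-like level, and they were shallow, with a median of 8172 UMIs. Barcodes with 2000 genes or fewer at D21 held 13277 CPM of the 9 genes.

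**Figure D4:**
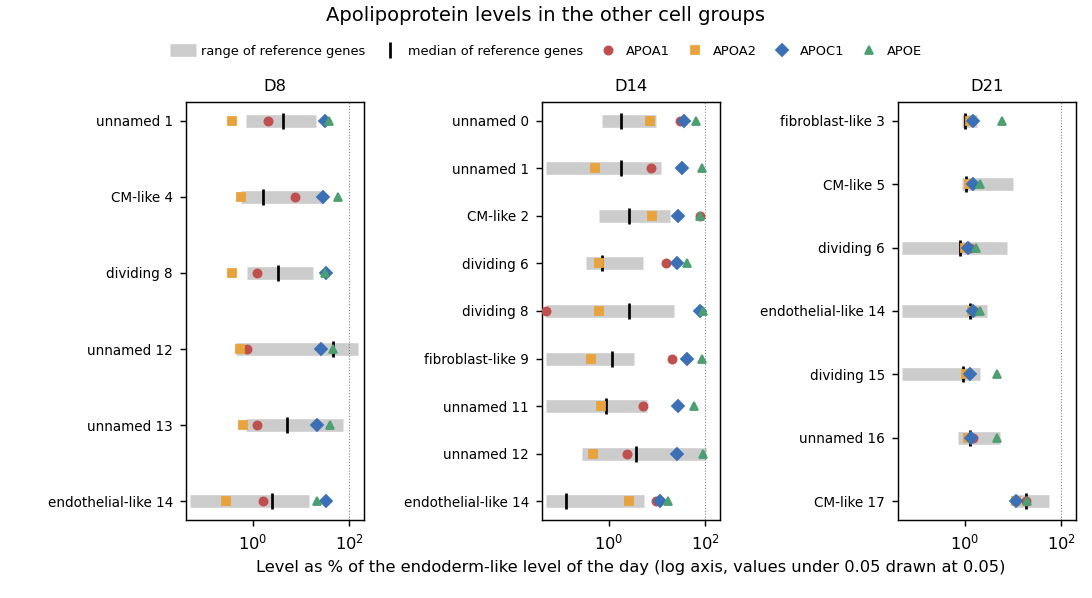
Levels of APOA1, APOA2, APOC1 and APOE in each other cell group as a percent of the endoderm-like level of the same day (log axis), with the range and median of the endoderm reference genes as bars and ticks. At D14 APOA1 is at 79.6% in CM-like cluster 2, and at D21 APOE is at 6.03% in fibroblast-like cluster 3 while APOA1 is at 1.39% there.

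At D14 more APOA1 UMIs lay in the CM-like than in the endoderm-like cells. The early endoderm-like cells held 20.8% of the day's APOA1 UMIs. For APOA2 their share was 53.7%, for APOB 60.7% and for the other members found 2.41% to 24.3%. The 986 CM-like cells of cluster 2 held 45.7% of the APOA1 UMIs, at 76.8 CPM (72.1 to 81.7), or 79.6% of the early endoderm-like level. Of the day's 3230 APOA2 UMIs and 168 APOB UMIs, the 4 D14 cells of the hepatic-like cluster held 750 and 29. A cell of the unnamed cluster 0 held 292 of that cluster's 325 APOA2 UMIs, along with 114 TTR UMIs. A single CM-like cell of 41489 UMIs, with 204 TNNT2 UMIs and 308 ACTC1 UMIs, held 225 of the 1015 APOA1 UMIs and 345 of the 376 APOA2 UMIs, along with 133 of SERPINA1 and 66 of AHSG. Whether this barcode held 1 cell was not tested, since the doublet caller did not work. Without that cell the CM-like levels were 60.0 CPM (55.9 to 64.3) for APOA1, 2.35 CPM for APOA2, 0.835 CPM for APOB and 0.987 CPM for APOC3. Thinned, 19.2% (16.8 to 21.8) of the CM-like cells had an APOA1 UMI, beside 20.2% of the early endoderm-like cells, 3.77% of the endothelial-like cells and 2.04% of the unnamed cells of cluster 11. TTR UMIs were in 1.32% of the same CM-like cells.

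APOA1 was as high in CM-like cells without endoderm UMIs. In the 735 CM-like cells of D14 with no UMI of APOA2, TTR, EPCAM or FOXA2, APOA1 was at 60.5 CPM (55.7 to 65.6), with 581 UMIs spread over 305 cells. APOA4 was at 5.41 CPM (4.04 to 7.10) in them, with 52 UMIs in 29 cells, APOC3 at 1.04 CPM (0.499 to 1.91) and APOE at 670 CPM. At D8 the CM-like cells of cluster 4 had 174 APOA1 UMIs in 496 cells, or 21.6 CPM (18.5 to 25.0), and the 295 of them without endoderm UMIs were at 23.6 CPM (19.4 to 28.5). These CM-like levels were above those of the other groups of kept cells without endoderm at D8, where APOA1 ranged from 2.15 to 5.89 CPM. Shallow barcodes (2000 genes or fewer) of D8 held 719 CPM of the 9 genes, 4.82% of it APOA1. The CM-like cells of D8 held 867 CPM, 2.49% of it APOA1, so APOA1 was not higher in them. At D14 shallow barcodes held 974 CPM, with 4.45% APOA1 and 0.426% APOA4. The CM-like cells of D14 held 890 CPM, with 8.63% and 0.595%. These CM-like shares include the single cells with most APOA1 and most APOA4 UMIs. The 95% intervals of the APOA4 shares overlapped, so APOA4 in CM-like cells could not be set apart from shallow barcodes. Whether free RNA gave these levels was not tested. APOA1 was also found in the unnamed cells of cluster 0 at D14, at 28.9 CPM (26.1 to 32.0) with 371 UMIs.

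APOA4 and APOC3 lie beside APOA1 in a row of neighbouring genes (APOA5, APOA4, APOC3, APOA1). At low counts, most of their D8 and D14 UMIs lay in the CM-like cells, which for APOC3 at D14 rested on 1 cell. The CM-like cells held 24 of the 32 APOA4 UMIs of D8 and 70 of the 83 of D14 (84.3%, from 74.7 to 91.4), and 11 of the 18 APOC3 UMIs of D8 and 39 of the 72 of D14. Single cells gave many of these UMIs. For APOA4 at D8, 14 of the 24 were in 1 cell, and the level without it was 1.24 CPM (0.596 to 2.29). For APOA4 at D14, 13 were in 1 cell, and the level without it was 4.32 CPM (3.27 to 5.59) against 0.210 CPM in the early endoderm-like cells treated the same way. For APOC3 at D14, 26 of the 39 were in the cell with 345 APOA2 UMIs, and the level without it, 0.987 CPM (0.525 to 1.69), could not be set apart from 0.842 CPM in the early endoderm-like cells. At D21 no APOA4 UMI was found in the 485 CM-like cells of cluster 5, which allows up to 0.445 CPM. The table has APOA1-AS, an antisense gene at APOA1, with 0 UMIs in the endoderm-like cells of D8 and D14 and 4 at D21.

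**Figure D5:**
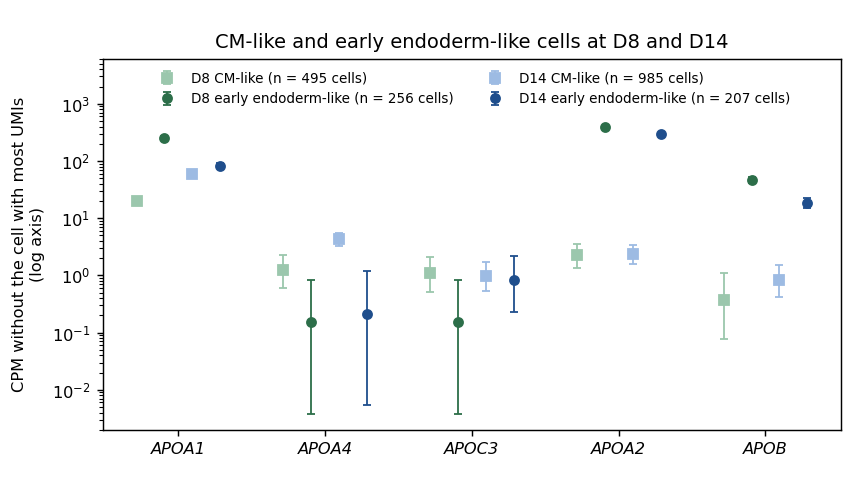
Levels of APOA1, APOA4, APOC3, APOA2 and APOB in CPM (log axis) in CM-like and early endoderm-like cells of D8 and D14, each without the cell with most UMIs of the gene, with 95% counting intervals. APOA1 is at 60.0 CPM in CM-like cells of D14 and 83.4 CPM in early endoderm-like cells, whereas APOA2 is at 2.35 CPM and 294.8 CPM.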

How the data were processed

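The authors deposited 1 table of raw UMI counts, genes by barcodes, for all 3 libraries, made with the Chromium Single Cell 3′ v2 kit, before any filter on cells. The submitters' processing notes name Cell Ranger, Seurat 3.2.1 and hg19, with no role or order. Each column name ended in its day. Since the sequences shown come from GRCh38.p14, no coordinates were joined to the counts.

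Cells with over 2000 and under 7500 genes and under 10% mitochondrial UMIs were kept. Seurat 5.3.0 (R 4.3.3, Matrix 1.6.5) scaled counts to 10000 per cell and clustered all days together on 20 components of 1991 variable genes, the 9 members left out, at a resolution of 0.8. This gave 18 clusters. A cluster was named "-like" if 3 or more of a class's markers exceeded the rest of the day by 2-fold or more, with 10 CPM added, and the class led the next by 2 markers. These thresholds were set after seeing the data. The 9 genes and all lists were chosen with earlier results of these data known. The genes named are the 9 members, genes of their lists (some list members and 1 motif searched are not reported here), and the 10 genes most like them among those at 100 CPM or more in at least 1 profile. Scrublet in scanpy 1.11.5 (anndata 0.12.19) called 1, 1 and 7 doublets, so the caller did not work, and doublets were kept.

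UMIs were summed per day and group as CPM, with exact Poisson intervals, and shares of cells have Clopper-Pearson intervals, both for counting error only. Ratios of CPM have intervals from the split of the 2 counts, and 1 count was added for 2-fold calls. Kept cells gave 46767738, 50247286 and 30898727 UMIs at D8, D14 and D21. A member was above free RNA where its lower bound passed the highest of the reference genes, which are those of 16 listed with 200 UMIs or more in the endoderm-like cells. The method was tested on simulated data. Python 3.11.15, numpy 2.4.6, scipy 1.17.1, pandas 2.3.3 and matplotlib 3.10.9 were used, and edgeR 4.0.16 gave TMM factors only.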

Additional observations from a re-analysis of the deposited data

How the results depend on the processing

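No paired analysis was possible because each day had 1 library, so no library could be left out either. All 8 genes called higher at D21 than at D14 were called so under every alternative run, and APOA4 was added in the same clusters under 5%. The 2 lower calls between D8 and D14 became 1 (APOA1) with cells chosen by a gate and with each cell weighted equally, and 3 at a 5% mitochondrial limit (APOM added) and with the level of other cells subtracted (APOE added, at a log2 ratio of -1.33). With that subtraction 38.7% of the 1778 genes tested were lower. The summed level of the 9 genes at D8, D14 and D21 was 2398, 1508 and 23310 CPM at a 5% mitochondrial limit with new clusters. That limit left 72 D21 cells in the new hepatic-like cluster, of which 37 were shared. The other 35 lay in other clusters at the 10% limit, 23 of them in CM-like cluster 5. These 35 cells held 3527 CPM of the 9 genes, against 32901 CPM in the 37 shared cells. The D21 sum was 32262 CPM in the same clusters under 5% and 81085 CPM at a 20% limit. The summed level at D8, D14 and D21 was 2464, 1923 and 62652 CPM with the gate, 2058, 1417 and 104777 CPM with TMM factors, 2053, 1409 and 105608 CPM with median-of-ratios factors, 2135, 1536 and 78195 CPM with each cell weighted equally, and 1722, 872 and 79318 CPM with the level of other cells subtracted. With over 1000 genes and no upper limit it was 1685 CPM at D14 and 80106 CPM at D21. The median over members of the share of cells with a UMI was 36.6%, 17.3% and 98.7% without thinning and 3.89%, 0.962% and 85.7% at 2 UMIs or more. Pairs of a member and a group above the reference genes numbered 12, 32 and 2 at D8, D14 and D21. They were 19 and 26 at D8 and D21 with the median reference gene as the limit, 1, 2 and 1 with shallow barcodes as the carriers, and 26 and 5 at D8 and D21 without EPCAM, CLDN6 and CDH1. At D14 the number was also higher with the median limit and without those genes. The number of groups differed between days, so these pairs are not compared between days. The same clusters under 5%, the shorter reference list and leaving out single cells were chosen after seeing the data. Depth limits APOA4, APOC3 and APOH at the early days, where 6 UMIs or fewer were found. The cause of these shifts was not tested.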
